A study of Danio rerio with 4 samples.

Results

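The contrast described here sets the 2 ovary libraries exposed to 1 compound each, DBP and DiBP, against the combined library, exposed to both compounds, and the unexposed control. All 4 libraries of the series enter it, 2 on each side. Dibutyl phthalate (DBP) and diisobutyl phthalate (DiBP) are isomeric plasticisers that differ in the branching of their butyl chains. Ovarian RNA came from wild-type zebrafish, AB in strain and 5 months of age, and exposure lasted 30 days, per the labels. The 4 groups are DBP, DiBP, both DBP and DiBP, and control, with 1 library each. The labels used here state neither doses nor the number of fish behind a library. With 1 library in each group, every difference below is one between libraries that no replicate checks, and neither a p-value nor an error can be attached to it.

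In a layout with 2 compounds, each absent or present, this contrast is the non-additive one. It is 0 for a gene whose combined library lies where the 2 single differences from control, added on the log scale, would place it. A gene is high in it when each compound alone goes with a higher level and the 2 together do not. A high value can also come from a rise in DBP or DiBP only, or from a low combined library. The gap, defined below, requires both single-compound libraries on the same side of both others. In the zebrafish ovary most RNA belongs to growing oocytes, which store ribosomes, egg-coat proteins and maternal messengers for the embryo. Granulosa and theca cells around each oocyte make steroid hormones, and stroma, vessels and leukocytes lie between the follicles.

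Expression was taken over rows with an Ensembl zebrafish identifier and a mean of at least 1 FPKM (fragments per kilobase of transcript, scaled to library size) over the 4 libraries. This left 12603 of the 49610 rows of each table, of which 11644 carried a symbol. For each row, the contrast is the mean log2(FPKM + 1) of DBP and DiBP minus that of combined and control. The gap is the log2 distance between the nearest values of the 2 sides, positive where both single-compound libraries were above both others, negative where both were below, and 0 where the sides overlap. A row is called separated where the gap is not 0, and called at least 2-fold where the gap is 1 or more. Symbols are printed as the identifier table gives them.

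The libraries themselves differed along the contrast. Adding up all rows gave 572398 FPKM in DBP and 598063 in DiBP, against 512635 in combined and 534379 in control. Absolute depth is unknown. Judged from the steps of low values at 187 to 207 rows, DBP was 1.05, DiBP 0.913 and combined 1.02 times as deep as control. The part of depth in the contrast was not tested. The table headers name DiBP and combined in a different way from DBP and control, and 1 library of each kind lies on each side. A contrast given below for comparison, DiBP and combined against DBP and control, follows this naming exactly, so DiBP and naming cannot be told apart there. Egg-coat genes, which mark oocytes, summed to 13965 FPKM in DBP and 13410 in DiBP, against 10844 in combined and 13908 in control. Total scaling, used below, brings each library to the same total over rows with an Ensembl identifier alone. Those totals were 545317 FPKM in DBP and 567753 in DiBP, against 452737 in combined and 505561 in control. Values under total scaling are given below where they turn a direction. In bulk tissue, fewer cells of a type and less RNA per cell cannot be told apart.

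The sides were separated at 6158 rows (48.9% of those measured). Both single-compound libraries were above both others at 3204 rows (25.4%) and below both at 2954 rows (23.4%). The contrast that sets DBP and combined against DiBP and control separated 2769 rows (22.0%; 11.2% higher and 10.7% lower), and the one that sets DiBP and combined against DBP and control separated 3674 rows (29.2%; 8.03% higher and 21.1% lower). These contrasts use the same 4 libraries, so their counts are not independent of each other. Barring ties, each row must be separated in a single contrast among them, so even an arbitrary split would separate many rows. Of the sum of squares of the log2 values about each row's mean, 43.5% lay in the non-additive contrast, 23.9% in the DBP contrast and 32.6% in the DiBP contrast. These shares, too, must add up to the whole. Most separations were small. The median size of the contrast, whatever its sign, was 0.27, and its 5th and 95th percentiles were -0.69 and 0.76. At least 2-fold gaps were found at 48 rows with the single-compound libraries higher (0.381%) and at 42 rows with them lower (0.333%), 90 in all (0.714%). The DBP contrast had 42 such rows (0.333%; 0.262% higher and 0.0714% lower) and the DiBP contrast 103 (0.817%; 0.46% higher and 0.357% lower), so at this size the non-additive contrast did not hold the most rows. The balance of directions depends on the scaling. With each library brought to the same total, 24.9% of the separated rows were higher in the single-compound libraries, against 52.0% with the deposited values. Of the 12609 rows measured under that scaling, 1653 were upward and 4980 downward, with a median contrast of -0.17. List counts under total scaling are to be read beside these. Median-of-ratios scaling gave 3175 rows upward and 3229 downward.

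**Figure D1:**
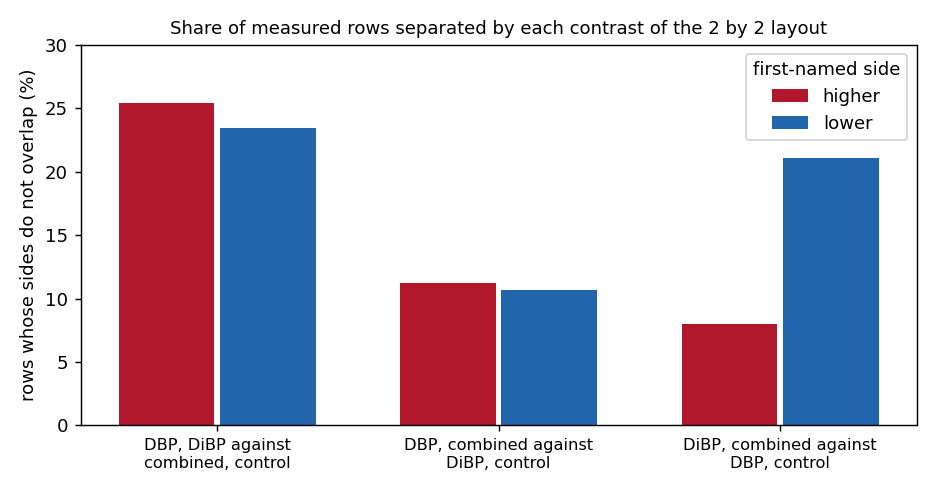
Share of the 12603 measured rows (vertical axis, percent) at which the sides of each contrast did not overlap, with rows higher on the first-named side in red and lower in blue. The contrast of DBP and DiBP against combined and control separated 25.4% of rows upward and 23.4% downward, more in all than either of the others.

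The share of rows separated upward was greater among abundant rows. Among the 2905 rows with a mean from 1 to 3 FPKM, 19.4% were higher and 21.3% lower in the single-compound libraries. Among the 833 rows at 100 FPKM or more, 49.8% were higher and 14.5% lower, and the median contrast was 0.25. With the deposited values, abundant transcripts thus leaned to the DBP and DiBP side. Shares by level were not counted under total scaling, which moved the median contrast of all rows to -0.17.

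**Figure D2:**
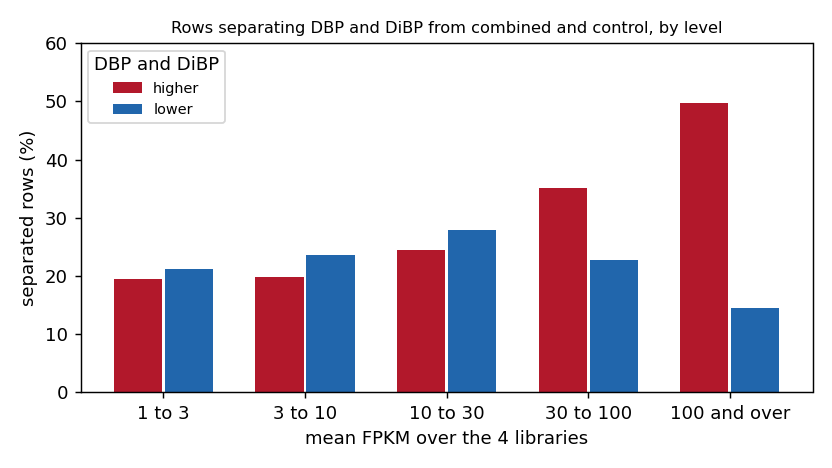
Share of rows (vertical axis, percent) at which DBP and DiBP lay both above (red) or both below (blue) combined and control, by mean FPKM of the row (horizontal axis). The red bars are near 20% at the low end and reach 49.8% at 100 FPKM and over, while the blue bars fall to 14.5%.

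At most of the rows at least 2-fold higher, combined was close to control on the log2(FPKM + 1) scale. Of the 48, 37 had combined within 1.5-fold of control on that scale, and 34 had DiBP within 1.5-fold of DBP. The pseudocount draws low values together: foxf2b, at 0.124 FPKM in combined and 0.0316 in control, is among the 37. The same counts were not made over all rows, so these have no background to be set against. DiBP was the higher of the single-compound libraries at 31. Of the 42 rows at least 2-fold lower, 23 had combined within 1.5-fold of control and 37 had DiBP within 1.5-fold of DBP. These rows were of low to moderate level, with a median of 6.23 FPKM for the higher and 10.3 FPKM for the lower. Some passed the filter only through a single side, which favours the direction they show. Among them were foxf2b, CYP19A1, tmprss15, PSME1, parp14rs3 and CNN2 through DBP and DiBP. Through combined and control these included TNFRSF19, SH3RF3, tbc1d10aa, MATCAP1 and trim35-24. Rows without a usable name were also among them in each direction. In each direction 6 of the rows repeat the 4 values of some other row and are not separate measurements. Near the limit, ADAT1 had a gap of 1.02 and cmah, just outside it, one of 0.99, while focad had -1.02 and ZBTB7B -0.96.

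The widest gaps among named genes were at foxf2b and her2, which encode transcription factors. The forkhead factor foxf2b was at 15.2 FPKM in DBP and 34.1 in DiBP, against 0.124 in combined and 0.0316 in control, the widest gap of a named gene (3.85). Both single-compound libraries showed it at a moderate level, and it was near 0 in the others. The bHLH repressor her2, of the hairy family that Notch signalling controls, was at 38.4 FPKM in DBP and 72.5 in DiBP, against 5.49 in combined and 0.358 in control. For her2 the combined library was low beside the single-compound libraries but well above control. Among 10 measured members of a list of Notch ligands, receptors and her genes, 2 were separated upward (her2 and, by 0.02, RFNG) and 1 downward (the ligand jag2b, -0.25), and the list's median contrast was 0.19. Over all rows, 25.4% were upward and 23.4% downward. With total scaling 1 member of the list was upward and 2 downward, where 1653 of all 12609 rows were upward and 4980 downward. The forkhead gene foxq1b is the direct neighbour of foxf2b in the gene order of RefSeq's GRCz12tu assembly and was chosen with its values known. It was at 28.7 FPKM in DBP and 22.8 in DiBP, against 9.11 in combined and 7.25 in control. The only other close pair of 2-fold rows with values of their own, tmprss15 and UBLCP1, lay in opposite directions (gaps 1.63 and -1.22).

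Oocyte genes included h1m, the most abundant of the 2-fold rows with a name. This gene, the linker histone of the oocyte and early embryo, was at 1453 FPKM in DBP and 1889 in DiBP, against 427 in combined and 531 in control. Its contrast was 1.80, so that combined minus the sum of the single differences added to control was -3.59 on the log2 scale. The replacement histone H3 genes h3f3d and h3f3a were also separated upward, with h3f3d at 256 FPKM in DBP and 287 in DiBP, against 132 in combined and 170 in control. The other histone genes of the list were not separated, and h2ax1, a histone H2A variant, followed another division, at 169 FPKM in DBP and 19.6 in DiBP, against 133 in combined and 7.81 in control. Of 32 measured oocyte and maternal regulators, 13 were separated upward (40.6%) and 4 downward (12.5%), against 25.4% and 23.4% of all rows. Among rows of any kind, 35.2% were upward and 22.8% downward at 30 to 100 FPKM, and 49.8% and 14.5% at 100 FPKM or more. The part of expression level in the oocyte counts was not tested. The median contrast of these regulators, 0.13, turned to -0.07 with total scaling (8 upward and 9 downward). Under that scaling 1653 of all 12609 rows were upward and 4980 downward, with a median of -0.17. Measured from the median of all rows, the regulators' median was 0.12 with the deposited values and 0.099 with total scaling. BTG4, which serves the clearance of maternal messengers, was at 241 FPKM in DBP and 159 in DiBP, against 83.6 in combined and 111 in control. Cyclin CCNB2 was at 540 FPKM in DBP and 520 in DiBP, against 337 in combined and 336 in control. The members below were small in size, with the piRNA-binding gene PIWIL1 at -0.17 and TDRD6, a germ granule gene, at -0.12.

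Egg-coat genes were less divided than these. Of 19 measured zona pellucida loci, 6 were separated upward (31.6%) and 0 downward, against 25.4% and 23.4% of all rows. Some loci share their values, and with these counted once 6 of 15 were upward and 0 downward. Among rows of any kind at 100 FPKM or more, 49.8% were upward and 14.5% downward. The part of expression level in the egg-coat counts was not tested. With total scaling 1653 of all 12609 rows were upward and 4980 downward, with a median of -0.17. Under it the egg-coat median of 0.12 turned to -0.10 (1 locus upward and 5 downward). The one with a wide gap was zp3d.2, at 77.7 FPKM in DBP and 116 in DiBP, against 44.7 in combined and 47.3 in control. The abundant zp3a.2 was at 1544 FPKM in DBP and 1463 in DiBP, against 1012 in combined and 1352 in control.

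The list of granulosa and theca genes held 2 of the widest gaps. CYP19A1, the aromatase that makes oestrogen from androgens in granulosa cells, was at 3.65 FPKM in DBP and 4.18 in DiBP, against 0.837 in combined and 0.677 in control. The gonadal microRNA gene mir202 was at 25.8 FPKM in DBP and 13.0 in DiBP, against 3.26 in combined and 1.58 in control; this is the row under that symbol, not the mature microRNA. For CYP19A1 combined was within 1.5-fold of control, whereas for mir202 it lay above control (0.72 on the log2 scale) and below both single-compound libraries. SERPINE2, a protease inhibitor, was at 26.8 and 26.4 FPKM in DBP and DiBP, against 20.5 in combined and 14.7 in control. Of 27 rows matched to the granulosa and theca list, 6 passed the filter. Of these, 3 were separated upward and 0 downward, against 25.4% and 23.4% of all rows. CYP19A1 passed the filter only through its levels in DBP and DiBP, so the filter favours upward rows here. The cholesterol side-chain cleavage gene CYP11A1 and CYP17A1, which serves androgen synthesis, had overlapping sides. Most of the other members were below 1 FPKM: gsdf was at 1.28 FPKM in DBP and 0.711 in DiBP, against 0.436 in combined and 0.488 in control, and STAR, the cholesterol carrier of steroid synthesis, at 0.506 and 0.272, against 0.0911 and 0.108. Defining genes were close to 0 throughout, with FSHR below 0.1 FPKM in each library. Over all 27 rows, without the filter, 15 were separated upward and 1 downward, against 5850 and 4640 of 27068 rows of any kind.

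Among 22 measured steroid synthesis enzymes, 10 were separated upward (45.5%) and 2 downward (9.09%), against 25.4% and 23.4% of all rows. Their median of 0.11 turned to -0.09 with total scaling (4 upward and 6 downward). The median of all rows went to -0.17 (1653 of 12609 upward and 4980 downward). Apart from CYP19A1 the differences were modest. The electron carrier fdx1 was at 80.3 and 78.8 FPKM in DBP and DiBP, against 59.8 in combined and 59.9 in control. HSD3B7, a sterol dehydrogenase, was at 20.9 and 19.1 FPKM, against 13.8 and 14.5. Of 8 measured hormone receptors 1 was separated upward and 3 downward, the glucocorticoid receptor NR3C1 by -0.10.

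**Figure D3:**
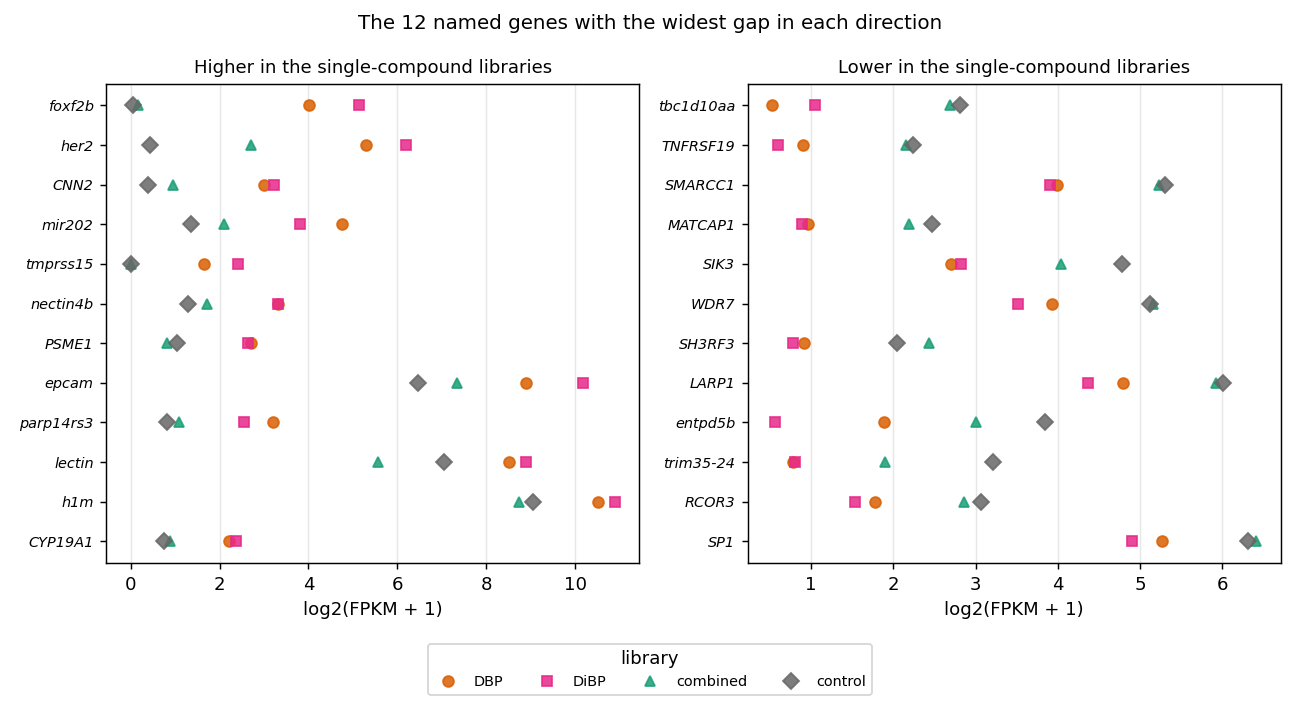
Levels of the 12 named genes with the widest positive gap (left) and the 12 with the widest negative gap (right), as log2(FPKM + 1) on the horizontal axis, with 1 point per library. In the left panel DBP and DiBP lie right of both other libraries for every gene shown, from foxf2b (gap 3.85) at the top, and in the right panel they lie left of both, from tbc1d10aa (-1.64) to SP1 (-1.04).

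Among genes of cell adhesion and contraction, a few had wide gaps. The adhesion gene epcam was at 472 FPKM in DBP and 1147 in DiBP, against 160 in combined and 86.8 in control. The gene nectin4b, which also joins cells, was at 9.0 and 8.91 FPKM in DBP and DiBP, against 2.27 in combined and 1.43 in control. The claudin genes cldnd and cldng, of the tight junction, were among the most abundant separated genes, with cldnd at 3301 and 3699 FPKM in DBP and DiBP, against 1824 in combined and 1111 in control. Not all such genes behaved alike: the cadherin gene cdh1 and the claudin gene cldn7b had overlapping sides. Of 9 measured epithelial and stromal markers 3 were separated upward and 0 downward, against 25.4% and 23.4% of all rows. Without the filter 7 of 24 were upward and 4 downward, against 5850 and 4640 of 27068 rows of any kind. CNN2, a calponin that binds actin, was at 6.96 FPKM in DBP and 8.31 in DiBP, against 0.946 in combined and 0.320 in control. In the smooth muscle and vessel list, 4 of 6 measured rows were separated upward and 0 downward, against 25.4% and 23.4% of all rows. A locus of MYL9, a myosin light chain, was at 3.01 and 2.46 FPKM in DBP and DiBP, against 0.519 in combined and 0.313 in control. CNN2 and this locus passed the filter only through their levels in DBP and DiBP, so the filter favours upward rows here. Without the filter 14 of 23 rows of the list were upward and 1 downward, against 5850 and 4640 of 27068 rows of any kind. The summed level of all 24 matched rows of that list was 60.1 FPKM in DBP and 31.4 in DiBP, against 20.9 in combined and 20.2 in control, and the vessel gene kdrl went the other way, at 0.498 and 0.167 FPKM, against 0.588 and 1.29.

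Leukocyte markers were low in all 4 libraries, lowest in control. Their summed level was 61.9 FPKM in DBP and 46.3 in DiBP, against 25.9 in combined and 8.21 in control, and 1 marker, cd8a, was listed at 0 in all 4 libraries. Of 11 measured rows 5 were separated upward and 0 downward, against 25.4% and 23.4% of all rows, but several are rows of MFAP4 that share their values. Without the filter 11 of 24 rows were upward and 0 downward, against 5850 and 4640 of 27068 rows of any kind. With combined left out 11 rows were upward and 0 downward, so control lay below both single-compound libraries at each of the 11. With control left out 5 were upward and 5 downward, so combined lay above both of them at 5. Over all 12603 rows these counts were 4395 and 5062 without combined, and 5107 and 3922 without control. The antigen-presentation gene cd74a was at 4.39 FPKM in DBP and 2.74 in DiBP, against 0.485 in combined and 1.04 in control, and the chemokine ccl38.6 at 7.21 and 9.49, against 3.26 and 0.0510. Of these, cd74a passed the filter only through DBP and DiBP. Below the filter, the pan-leukocyte gene ptprc was at 0.481 and 0.296 FPKM in DBP and DiBP, against 0.0342 and 0.0240. Lysozyme (lyz) was at 0.949 and 1.09 FPKM, against 2.64 in combined and 0.922 in control, so not every leukocyte gene followed. The part of a differing share of follicle, muscle and blood cells in the results above was not tested. Erythrocyte markers (24.7 and 22.3 FPKM in DBP and DiBP, against 19.7 in combined and 18 in control, most of it UROD) and hepatocyte markers (2.3 and 6.44, against 6.18 and 4.46) were low in all.

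Ribosomal protein genes mostly lay on the higher side. Of 46 measured genes of the large subunit, 33 were separated upward and 0 downward. Of 35 of the small subunit, 28 were separated upward and 1 downward. Some of these rows share their values. With such rows counted once, 29 of 41 of the large subunit were upward and 0 downward, and 26 of 33 of the small subunit upward and 1 downward. Over all rows 25.4% were upward and 23.4% downward, but among rows of any kind at 100 FPKM or more 49.8% were upward and 14.5% downward. The part of expression level in the ribosomal counts was not tested. The median contrasts were 0.36 and 0.56, against 0.01 over all rows, and 0 of these genes reached a 2-fold gap. Summed over the large subunit, the level was 20017 FPKM in DBP and 25574 in DiBP, against 15688 in combined and 18396 in control. The small subunit gave 20972 and 25559 FPKM in DBP and DiBP, against 15068 and 18115. DiBP was thus the highest and combined the lowest library for both subunits.

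The widest gap was at RPS28, at 241 FPKM in DBP and 316 in DiBP, against 126 in combined and 129 in control. RPL26 was at 1328 and 1669 FPKM, against 720 and 756, and RPS25 at 1236 and 1978, against 768 and 814. RPL29 stood out in DiBP, with 242 FPKM in DBP and 676 in DiBP, against 126 in combined and 144 in control. The exception downward was RACK1, a scaffold protein of the small subunit, at 878 and 848 FPKM in DBP and DiBP, against 923 and 1181. With total scaling, 24 large-subunit genes were separated upward and 3 downward, and 26 and 4 of the small subunit, and the medians were 0.15 and 0.35, both above the median of all rows under that scaling (-0.17).

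Mitochondrial ribosomal proteins followed, with 44 of 73 measured genes separated upward and 3 downward (median 0.28). Among rows of any kind, 35.2% were upward and 22.8% downward at 30 to 100 FPKM, and 49.8% and 14.5% at 100 FPKM or more. Among them mrps28 was at 126 and 147 FPKM in DBP and DiBP, against 72.7 in combined and 84.5 in control. This group is sensitive to scaling, since 21 were upward and 13 downward with total scaling, where its median was 0.07. Proteasome subunits, also abundant housekeeping genes, were evenly divided, with 11 of 37 upward and 10 downward and a median of 0.05. That median turned to -0.16 with total scaling (5 upward and 18 downward). Under it 1653 of all 12609 rows were upward and 4980 downward, with a median of -0.17. PSMB6, a core subunit, was at 264 and 285 FPKM in DBP and DiBP, against 169 and 190, whereas the regulatory subunit PSMD1 was at 35.3 and 39.2, against 47.2 and 47.3. PSME1, a subunit of the proteasome activator that interferon controls, was at 5.56 and 5.22 FPKM, against 0.752 in combined and 1.06 in control.

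**Figure D4:**
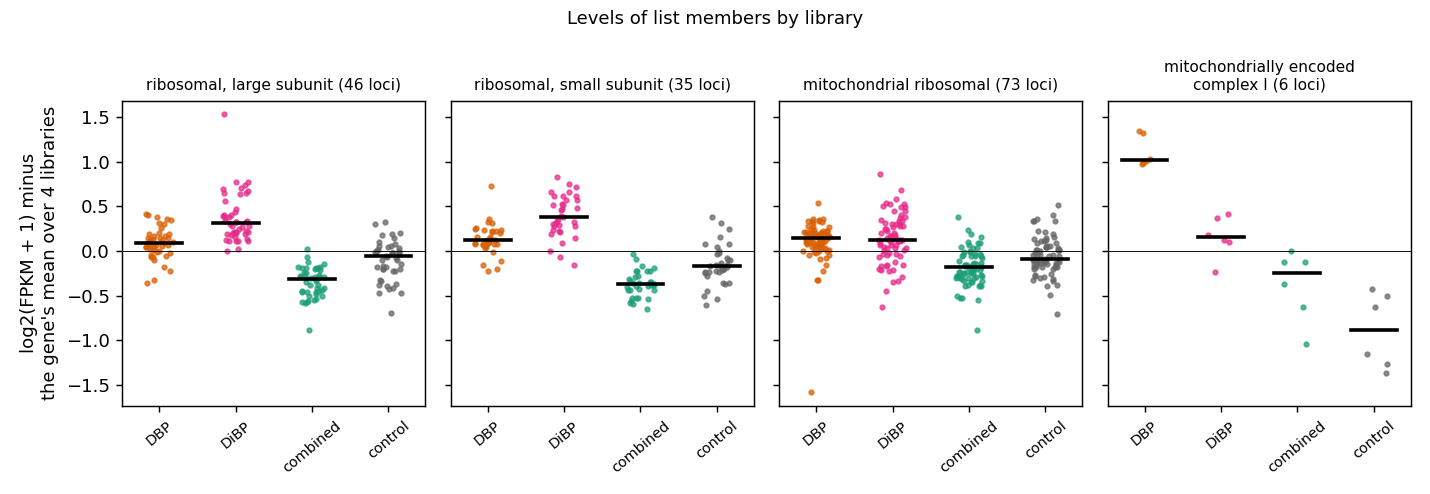
Level of each member locus in each library, as log2(FPKM + 1) minus the gene's mean over the 4 libraries (vertical axis), for ribosomal proteins of the large and small subunit, mitochondrial ribosomal proteins and mitochondrially encoded complex I genes. Black bars are medians, which lie above 0 in DBP and DiBP and below 0 in combined and control in all 4 panels, with DiBP highest for cytosolic ribosomal proteins and DBP highest for complex I.

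Complex I genes of the respiratory chain mostly lay on the higher side, whether encoded in the mitochondrion or the nucleus. All 7 mitochondrially encoded complex I genes had a contrast above 0, and 6 were separated upward (median 1.15). MT-ND1 was at 584 FPKM in DBP and 310 in DiBP, against 180 in combined and 89.8 in control. The order DBP, DiBP, combined, control also held for MT-ND5, at 173, 111, 78.4 and 35 FPKM, and for MT-ND6, at 340, 196, 172 and 77.1 FPKM. The 6 mitochondrially encoded genes of the other complexes were not separated: MT-CO1 was at 2490 FPKM in DBP and 1239 in DiBP, against 1279 in combined and 1392 in control, so that DBP alone stood high. MT-ND4 and mt-nd4l share their values, as do MT-CO3, MT-ATP6 and mt-atp8, and cannot be told from each other. Of 39 measured nuclear complex I subunits, 25 were separated upward and 3 downward (median 0.33), and 15 and 8 with total scaling (median 0.12). Abundant rows of any kind also leaned upward, with 49.8% upward and 14.5% downward at 100 FPKM or more. The accessory subunit ndufc2 was at 159 and 167 FPKM in DBP and DiBP, against 106 and 99.6. The core subunit NDUFS1 was at 62.4 and 56.1 FPKM in DBP and DiBP, against 72.9 in combined and 90.1 in control, and NDUFV1 was also below (gap -0.09), so the subunits had no single direction.

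Cell death genes included a 2-fold member. The gene pmaip1, a BH3-only protein that opposes survival proteins of the BCL2 family, was at 75.3 FPKM in DBP and 66.0 in DiBP, against 27.3 in combined and 26.4 in control. Of 32 measured apoptosis and DNA damage response genes 14 were separated upward and 4 downward (median 0.22), against 25.4% and 23.4% of all rows. Among rows of any kind at 100 FPKM or more, 49.8% were upward and 14.5% downward. With total scaling 6 of the list were upward and 8 downward, with a median of 0.03. That scaling put 1653 of all 12609 rows upward and 4980 downward, with a median of -0.17. The survivin gene birc5b was at 414 and 515 FPKM in DBP and DiBP, against 264 and 261, and the survival gene mcl1b at 18.3 and 25.2, against 12.8 and 12.3, so genes of both death and survival were among those above. AIFM1, a mitochondrial protein with a role in cell death, was at 20.6 and 15.3 FPKM in DBP and DiBP, against 35.2 and 32.3.

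Cholesterol genes had more members below than above, while lists of other lipid genes were close to all rows, where 25.4% were upward and 23.4% downward. Of 24 measured genes of cholesterol synthesis and its regulators, 3 were separated upward and 8 downward (median -0.09). The sterol-sensing factor srebf2 was at 14.1 FPKM in DBP and 11.6 in DiBP, against 23.3 in combined and 26.1 in control. SREBF1, its relative that drives fatty acid synthesis, was at 1.97 and 1.27 FPKM, against 3.8 and 4.42, and GGPS1, which makes geranylgeranyl diphosphate, at 4.01 and 5.68, against 8.11 and 9.36. The mevalonate kinase gene MVK was an exception, at 24.1 and 21.8 FPKM in DBP and DiBP, against 12.2 and 15.7. In the list of fatty acid synthesis and carriers, 3 of 15 were upward and 4 downward, and the median of 0.01 turned to -0.12 with total scaling. The median of all rows went to -0.17 under that scaling (1653 of 12609 upward and 4980 downward). The desaturase SCD was at 4.70 and 3.01 FPKM in DBP and DiBP, against 8.96 and 12.6, and the carboxylase ACACA at 3.64 and 3.24, against 4.96 and 5.14. Members of the same list went the other way, with ELOVL5 at 1.39 and 1.92 FPKM, against 0.844 and 1.05, though it passed the filter only through DBP and DiBP. The lipoprotein gene apoeb was at 11.3 and 3.25 FPKM, against 2.36 and 0.851. Of 33 PPAR and fatty acid oxidation genes, 6 were upward and 9 downward (median -0.08; 5 and 19 with total scaling), with the lipase inhibitor ANGPTL4 at 4.19 and 5.90 FPKM in DBP and DiBP, against 2.16 and 1.44, and the acyl-CoA ligase acsl1b at 1.35 and 1.57, against 2.87 and 3.11.

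**Figure D5:**
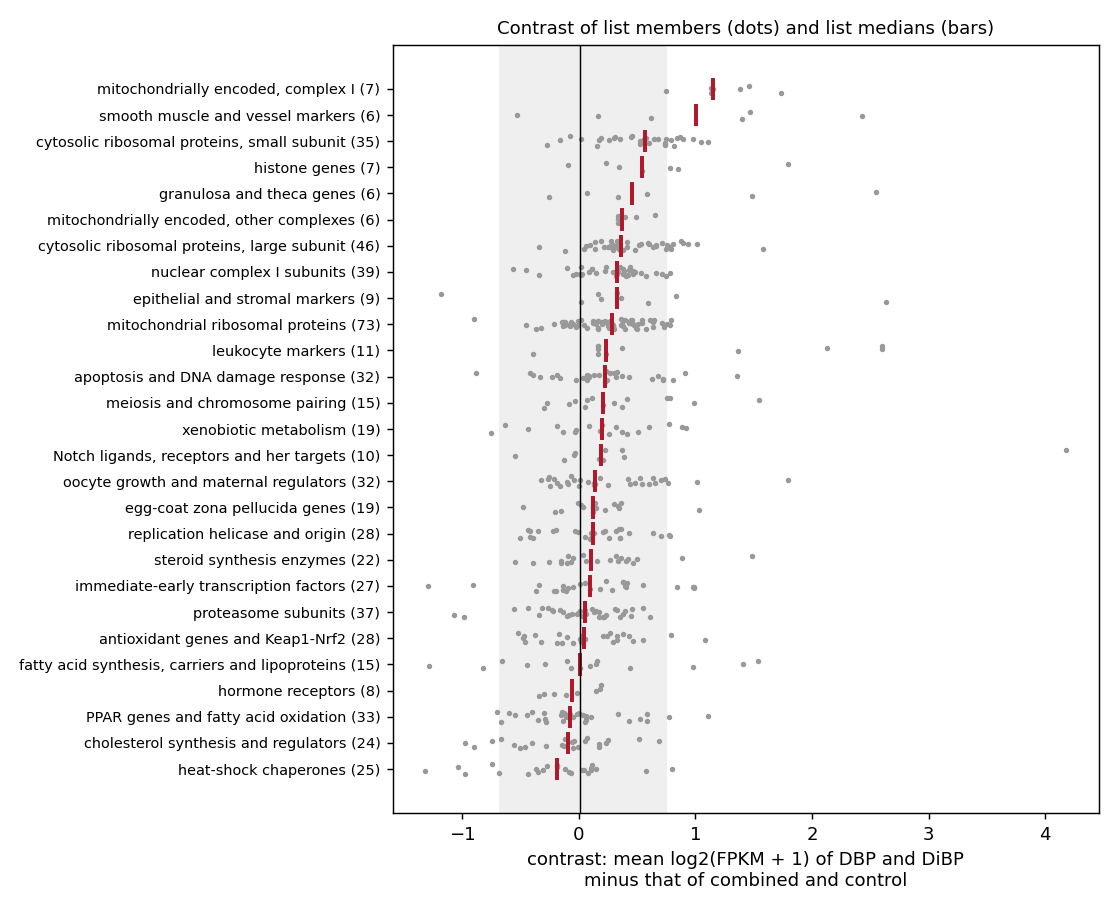
Contrast of every measured member (grey dots) and the median (red bar) of each gene list with 3 or more measured members, with the number measured in brackets. The black line is the median over all 12603 rows (0.01) and the grey band their 5th to 95th percentiles (-0.69 to 0.76). Medians run from 1.15 for mitochondrially encoded complex I to -0.18 for heat-shock chaperones.

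Stress and detoxification lists showed no common direction. The share over all rows, to be set beside the counts below, was 25.4% upward and 23.4% downward. At 100 FPKM or more it was 49.8% and 14.5%. With total scaling 1653 of all 12609 rows were upward and 4980 downward, with a median of -0.17. Of 25 heat-shock chaperones 3 were upward and 6 downward (median -0.18; 1 upward and 17 downward with total scaling), with the heat-shock factor hsf1 at 2.17 and 2.51 FPKM in DBP and DiBP, against 4.04 and 7.57. Of 27 immediate-early factors 4 were upward and 4 downward, with a median of 0.10 that turned to -0.02 with total scaling. Single libraries moved these counts, to 18 upward and 4 downward without DBP and to 7 and 13 without DiBP. KLF6 was at 9.97 and 12.5 FPKM in DBP and DiBP, against 5.22 and 5.06, and NR4A1 at 6.32 and 1.33, against 6.70 and 12.4. Of 28 antioxidant genes 9 were upward and 4 downward (median 0.04, and with total scaling -0.11, with 2 upward and 7 downward), with the mitochondrial superoxide dismutase SOD2 at 153 and 166 FPKM in DBP and DiBP, against 104 and 114, and catalase (CAT) at 57.5 and 56.8, against 68.7 and 81.0. In the xenobiotic list 6 of 19 were upward and 4 downward (1 and 4 of 18 with total scaling), with the glutathione transferase gstt1a at 1.36 and 2.0 FPKM, against 0.397 and 0.421. That gene passed the filter only through DBP and DiBP. With the filter at 5 FPKM, 2 of 9 xenobiotic genes were upward and 2 downward. Of 15 meiosis genes 6 were upward and 1 downward (3 and 3 with total scaling). Of 28 replication genes 12 were upward and 6 downward (median 0.12, and with total scaling -0.08, with 5 upward and 8 downward). RPA3, a single-strand binding protein, was at 194 and 254 FPKM in DBP and DiBP, against 133 and 124, and the helicase subunit MCM7 at 199 and 184, against 245 and 302.

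The genes furthest below in the single-compound libraries included regulators of chromatin, RNA and signalling. SMARCC1, a core subunit of the SWI/SNF chromatin remodeller, was at 14.9 FPKM in DBP and 13.9 in DiBP, against 36.7 in combined and 38.3 in control. A locus of ARID1A, another subunit of that remodeller with 2 rows under its symbol, chosen with its values known, was at 3.86 and 3.15 FPKM, against 9.14 and 8.88. RCOR3, of the CoREST corepressors, was at 2.43 and 1.89 FPKM, against 6.24 and 7.36, and the transcription factor SP1 at 37.6 and 28.9, against 84.2 and 78.6. In all 4 genes, combined and control lay close to each other.

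Genes that act on RNA were in the same group. LARP1, which binds the messengers of ribosomal proteins, was at 26.8 FPKM in DBP and 19.7 in DiBP, against 59.7 in combined and 63.1 in control. The helicase HELZ was at 2.32 and 2.35, against 7.01 and 5.83. Among signalling genes, the kinase SIK3 was at 5.50 and 6.05 FPKM in DBP and DiBP, against 15.5 in combined and 26.4 in control. The receptor TNFRSF19 was at 0.872 and 0.512 FPKM, against 3.45 and 3.71. The widest negative gap of a named gene was that of tbc1d10aa, of a family of Rab GTPase regulators, at 0.442 and 1.06 FPKM, against 5.43 and 6.01. It passed the filter only through combined and control, as did TNFRSF19 and, named next, MATCAP1, SH3RF3 and trim35-24. The 15 lowest also included WDR7, MATCAP1, SH3RF3, entpd5b, trim35-24 and NCKIPSD, with contrasts from -2.20 for entpd5b to -1.29 for NCKIPSD.

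Among abundant genes the negative side was smaller. The highest-expressed gene with a gap of -0.5 or beyond was lrr1, at 367 FPKM in DBP and 281 in DiBP, against 587 in combined and 857 in control. The tubulin gene tubb2b was at 172 and 149 FPKM, against 274 and 310, the adaptor dab2 at 106 and 83.7, against 173 and 217, and the splicing factor SF3A1 at 68.8 and 61.7, against 113 and 165. On the positive side, S100A1, a calcium-binding protein, was at 935 FPKM in DBP and 1441 in DiBP, against 333 in combined and 641 in control. The avidin gene avd, which binds biotin, was at 773 and 793 FPKM in DBP and DiBP, against 412 in combined and 534 in control.

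Other named genes at least 2-fold higher served several functions. A lectin row was at 362 FPKM in DBP and 472 in DiBP, against 46.3 in combined and 131 in control, 1 of the few with combined well below control. The centromere gene cenpo was at 25.6 and 36.1 FPKM, against 9.79 and 9.42. The protease tmprss15 was at 2.12 and 4.36 FPKM, listed at 0 in combined and at 0.0103 in control. The gene gig2p, of a family that viruses induce in fish, was at 7.13 and 7.45 FPKM, against 2.24 and 1.93, and parp14rs3 at 8.16 and 4.90, against 1.11 and 0.777. Of these, cenpo and gig2p had each pair of libraries on a side within a narrow range.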

How the data were processed

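Ovary RNA libraries were made with a NEBNext Ultra kit and sequenced from both ends on an Illumina instrument, per the labels' protocols. Per the submitters' processing notes, the tools included HISAT2 and HTSeq 0.6.1, with GRCz10 as genome build. Whether strand was used is not given in the sources used here, so overlapping genes cannot be told apart. The deposited tables hold FPKM, a unit read from the values, since neither header nor label names it. Symbols matched 26996 of 35066 Ensembl rows, and 1503 of the 12603 measured rows share their 4 values with another row.

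No scaling was added to the deposited FPKM, which were turned into log2 values with a pseudocount of 1. With 1 library per group no test was run; depth gives no interval, because FPKM holds no counts. The members and the 29 gene lists (matched by symbol, or without a final paralog letter) were chosen with earlier results of these data known. Genes are named by rule, not all printed, and some not reported here: the 15 widest gaps in each direction, the 8 most abundant with a gap of 0.5 or more, and up to 3 of each list in each direction, among symbols on 1 row that share no values and are no clone names. The contrast by protein length was not run, since no protein table was used here. Alternatives were the pseudocount, the filter, 3 scalings, shared rows counted once and each library left out. The code was tested on simulated data. Python 3.11.15, numpy 2.4.6, pandas 2.3.3 and matplotlib 3.10.9 were used.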

Additional observations from a re-analysis of the deposited data

Results flagged for a closer look

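Rows of merged loci, which carry no gene name and stand outside the contrast above, also differed between the sides; whether their share of 2-fold rows differs from that of the other rows was not tested. Of 2084 such rows with a mean of at least 1 FPKM and values of their own, 32 (1.54%) were at least 2-fold higher in the single-compound libraries and 28 (1.34%) at least 2-fold lower than in combined and control, against 0.381% and 0.333% of the rows with an Ensembl identifier. They were looked at because they are data that the comparisons do not use, and no gene can be credited with them.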

How the results depend on the processing

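Each of the 90 rows called at least 2-fold kept the sign of its contrast under every alternative in which it was measured, and stayed separated. No other outcome was possible, so this is no check on the calls. Pseudocount, filter and counting shared rows once leave the order of the libraries at a row unchanged. Leaving out 1 library cannot narrow a gap. The scaling factors differed too little between libraries to undo a 2-fold gap. Separation itself cannot change with the pseudocount, and the counts of 2-fold rows were 112 higher and 82 lower with a pseudocount of 0.1, and 29 and 27 when the filter was raised to 5 FPKM, where fewer rows are measured. With no filter, where 27068 rows are measured, 5850 rows were separated upward and 4640 downward. Total scaling moved the median contrast of all rows to -0.17, with 1653 rows separated upward and 4980 downward (24.9% upward) and 79 at least 2-fold lower. Without the 50 most abundant rows in the total these values were -0.12, 2035, 4478, 31.2% and 67. Total scaling kept 33 of the 48 calls upward and 42 of the 42 downward. Median-of-ratios scaling gave 1648 rows upward and 1665 downward in the DiBP contrast, against 1012 and 2662. Leaving out 1 library, whichever it was, widens gaps by construction: 4395 to 5238 rows were separated upward, 3915 to 5324 downward, 173 to 282 were at least 2-fold higher and 92 to 267 lower. Among the lists, leaving out 1 library turned the balance of separated members in 5: Notch without DBP (3 upward, 4 downward) and without control (2, 3), proteasome (13, 16) and antioxidant genes (9, 14) without combined, and heat-shock (9, 8) and fatty acid genes (6, 4) without control. No paired analysis was possible because each group has 1 library. Depth is unknown, so the counting error of low genes cannot be given.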

Other observations

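Families of genes that share a symbol stem, a grouping chosen after the values were seen, lay on both sides of the contrast. Those shown were taken from the ends of the ranking, so their counts lean through that choice. The share over all rows was 25.4% upward and 23.4% downward, and at 100 FPKM or more 49.8% and 14.5%. Of 124 families with at least 10 measured rows, the RNA exosome (EXOSC) had the highest median contrast, 0.60, with 7 of 10 genes separated upward and 1 downward. EXOSC7 was at 179 FPKM in DBP and 203 in DiBP, against 87.4 in combined and 77.2 in control, while EXOSC10, the nuclear exonuclease, was at 28.3 and 29.8, against 42.2 and 43.7. Histone (H), cytosolic ribosomal (RPS and RPL), TIMM and LSM stems came next in that order. Sm-like RNA-binding genes (LSM) had 12 of 15 upward and 3 downward, with LSM8 at 103 and 128 FPKM, against 65.1 and 62.9, and LSM14A at 7.51 and 7.19, against 9.45 and 14.5. Importers of the mitochondrial inner membrane (TIMM) had 10 of 15 upward and 1 downward, and RNA polymerase subunits (POLR) 17 of 30 upward and 4 downward.

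The 5 lowest medians were those of PEX, TRAF, KDM, MAPK and NUP. TRAF had -0.33, with 0 of 10 upward and 3 downward, and MAPK -0.28, with 2 of 10 upward and 6 downward. Of all rows, 25.4% were upward and 23.4% downward, so the downward count of TRAF was near that share. The others were peroxisome assembly genes (PEX, median -0.35, 1 of 15 upward and 8 downward), histone demethylases (KDM, median -0.29, 0 of 16 upward and 9 downward) and nuclear pore genes (NUP, median -0.26, 1 of 20 upward and 13 downward). KDM5A was at 12.8 FPKM in DBP and 11 in DiBP, against 24.1 in combined and 24.8 in control, and the pore scaffold gene NUP160 at 23.5 and 19.8, against 40.5 and 40.7. Over all families the median of the medians was 0.02, against 0.01 over all rows.

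Rows with no gene name, or only a clone name, included some that were far higher in the combined library. The row ENSDARG00000099939 was at 14.0 FPKM in DBP and 12.3 in DiBP, against 1047 in combined and 52.6 in control, and 2 clone-named rows, si:dkeyp-3b12.11 and si:dkeyp-3b12.10, were at 9.93 and 9.32 FPKM in DBP and at 8.17 and 11 in DiBP, against 342 and 302 in combined and 38.9 and 37.8 in control. A 5.8S ribosomal RNA row followed another order, highest in control, and was at 16.9 and 37.3 FPKM in DBP and DiBP, against 91.9 in combined and 131 in control. These rows were picked after their values were seen.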
